A study of Capra hircus with 30 samples.

Results

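The libraries described here are the small follicle libraries of a goat granulosa cell study, 5 from the high fertility population (HSG) and 5 from the low fertility population (LSG), 10 of the 30 libraries of the series. They are every library labelled with small follicles. The animals were Ji'Ning grey goats, a prolific Chinese breed. By the series' design text the populations had more than 3 (high) and fewer than 2 (low) kids per birth, and by the methods at least 3 and at most 2 per litter, so the exact limit differs between these sources. Small follicles were under 3 mm across. By the methods, the granulosa cells of each group and follicle size were divided into portions of 10 to 20 cells, and each portion became 1 total RNA library after removal of ribosomal RNA. The 5 libraries of a group carry the numbers 5, 7, 8, 9 and 10. Nothing says that the portions came from separate goats, so the p-values below measure the spread between such samples, which may be technical. For the linear model below (limma) this spread was estimated over all 30 libraries of the series. The question of the comparison was which genes differ between high and low fertility goats at the smallest follicle size.

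Granulosa cells surround the oocyte and supply it through gap junctions. In small follicles they divide under the control of follicle-stimulating hormone and of local TGF-beta family ligands such as activins and BMPs. As a cell type they make aromatase (CYP19A1), which forms estradiol, and anti-Müllerian hormone (AMH), which restrains recruitment. Several known litter size mutations of sheep and goats lie in the BMP branch, which makes the small follicle stage one of interest for fecundity.

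The table gave FPKM values (fragments mapped, scaled by transcript length and by the fragments of the library) for 20125 features, of which 17946 carried an NCBI gene number and 2179 were unnamed loci numbered MXLOC. The unnamed loci held 66.0% to 74.9% of the FPKM of a small follicle library. In 5 of the 10 libraries the lowest values fell on steps that correspond to 12.7 to 15.5 fragments for 1 FPKM in a 1 kb transcript. In the others, HSG-5 included, no step could be read and the depth is unknown, and no counting interval can be given.

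Most features were seen in few libraries. Of the 16215 features above 0 in at least 1 small follicle library, the median was above 0 in 2 of the 10, 8301 were above 0 in at most 2, and 109 were above 0 in all 10. A value of exactly 0 cannot be read as absence. Each of the 29 genes measured from a list of those abundant in most cells, such as ACTB and GAPDH, was listed at 0 in at least 1 of the 10 libraries. ACTB was listed at 1.48, 1.6, 0, 0.29 and 0.38 FPKM in HSG-5, HSG-7, HSG-8, HSG-9 and HSG-10 and at 0.31, 0, 0, 0.06 and 5.83 FPKM in LSG-5, LSG-7, LSG-8, LSG-9 and LSG-10. Values per library are given below in this order.

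HSG-5 stood apart. It had 719 features above 0, against 4477 to 6328 in the other HSG libraries and 3576 to 8178 in the LSG libraries, and its FPKM total was 33640 against 59902 to 79111. Counting the features with an NCBI number at 1 FPKM or more, HSG had 1498 ± 698 (SD, n = 5) and LSG 1850 ± 393 (SD, n = 5). The difference of -352 (HSG minus LSG) did not exceed the spread (exact permutation test, two-sided, p = 0.413), and without HSG-5 the HSG mean was 1799 ± 216 (SD, n = 4) and the difference -50.9 (p = 0.833, exact permutation test). Results that rest on HSG-5 are given with and without it.

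**Figure D1:**
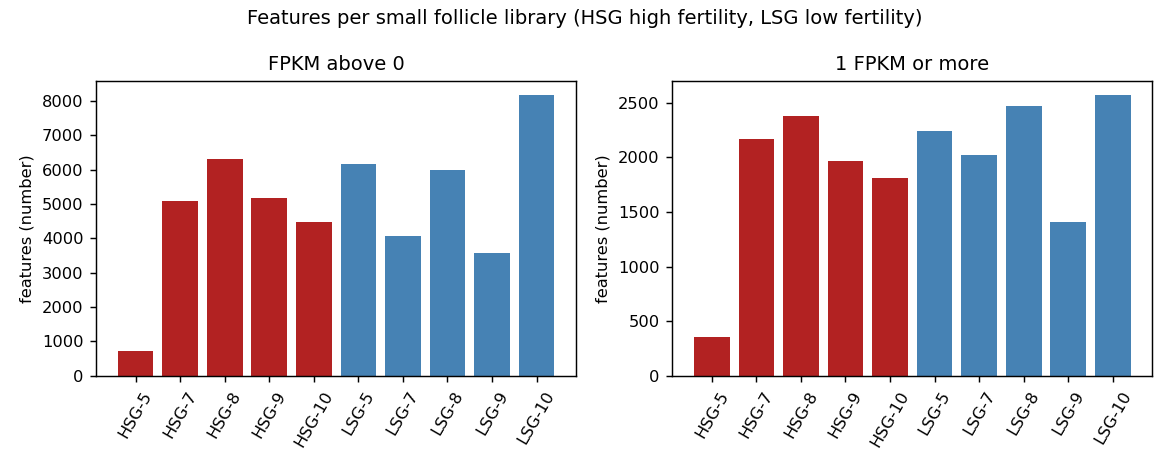
Number of features (vertical axis) with an FPKM above 0 (left) and of 1 FPKM or more (right) in each of the 5 HSG (red) and 5 LSG (blue) libraries. HSG-5 had 719 and 357 features, while the other 9 libraries had 3576 to 8178 above 0 and 1407 to 2570 at 1 FPKM or more.

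The granulosa label was checked against the defining genes of the cell type. FSHR, the follicle-stimulating hormone receptor, was above 0 only in HSG-9, at 1.26 FPKM, and AMH was listed at 0 in all 10 libraries. CYP19A1 was listed at 0, 0.22, 0.04, 0.07 and 0.02 FPKM in HSG and at 1.07, 1.16, 0, 0 and 0 FPKM in LSG. Of the 11 measured genes of the granulosa list, none was above 0 in all 10 libraries, and FOXL2 is not in the table. Their summed FPKM ranged from 0.52 to 65.58 in HSG, highest in HSG-5 through LHCGR and INHBA, and from 0.04 to 5.27 in LSG. Of the gene-library pairs, 25.5% were above 0 in HSG, 27.3% without HSG-5 and 23.6% in LSG. Over all features with an NCBI number these shares were 21.7%, 26.2% and 28.0%. The label was thus neither met nor contradicted by these markers, which were too sparse for a check.

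Lists of other cell types were also sparse. They were above 0 in 10.9% to 24.4% of gene-library pairs in HSG and in 8.0% to 22.2% in LSG. Summed over 11 immune genes, FPKM ranged from 0 to 2.01 in HSG and from 0 to 8.08 in LSG, over 9 theca and stroma genes from 0.31 to 2.5 and from 0 to 2.58, over 10 endothelial genes from 0.25 to 7.69 and from 0.03 to 1.63, and over 5 red blood cell genes from 0 to 5.49 and from 0 to 2.79. The defining genes CDH5 of endothelium and SLC4A1 of red cells were listed at 0 in all 10 libraries. Over 11 oocyte genes the sum ranged from 0 to a maximum of 11.5 in HSG and from 0.44 to 10.2 in LSG. GDF9, the oocyte's growth signal to granulosa cells, was listed at 0 in HSG and at 0.4, 0, 0.13, 0 and 0.03 FPKM in LSG, and BMP15 at 0 throughout. The part of other cells in the differences below was not tested, and in such samples fewer cells of a type and less RNA per cell cannot be told apart.

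Across the 6058 features with more than 0.5 FPKM in at least 5 of the 30 libraries, none differed between HSG and LSG at an adjusted p under 0.05 (0.0% called; limma on log2(FPKM + 1), a linear model that shares variance across features, Benjamini-Hochberg, two-sided). Differences below are HSG minus LSG on this log2 scale, which understates the change of low genes. At an unadjusted limma p under 0.05 there were 387 features (6.39%), with 110 higher in HSG (1.82%) and 277 higher in LSG (4.57%). Without HSG-5 none passed either, and the split was 204 higher in HSG (3.38% of 6031) and 187 higher in LSG (3.1%). The direction of the excess thus turned on 1 library. Quantile normalization of all 10 libraries gave 124 and 182, so that 40.5% of these features were higher in HSG in place of 28.4%. The main fit drew its spread from all 30 libraries. With HSG and LSG alone in the fit, 136 of the 6058 features were under 0.05, 41 higher in HSG and 95 in LSG. Over all features tested, 40.7% of the differences were above 0, and 47.7% without HSG-5. Of the 110 features higher in HSG, 100 were also under 0.05 without HSG-5, and of the 277 higher in LSG, 182 were.

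The number of libraries in which a feature was above 0 was compared next. By Fisher's exact test (two-sided, 5 libraries against 5), no feature of 16215 passed after adjustment (0.0%). The smallest Fisher p that 5 libraries a side can give is 0.00794, which 9 features reached. With only 9 of 16215 features at this floor, none could pass after adjustment. A single feature could not pass alone however complete its split, so the 0.0% decides nothing about single features. At an unadjusted Fisher p under 0.05 there were 126, with 22 above 0 more often in HSG (0.136%) and 104 in LSG (0.641%). More features were above 0 in more LSG than HSG libraries (50.8%) than the opposite (27.4%). Without HSG-5, a greater share of the LSG than of the HSG libraries was above 0 for 50.9% of features, and the opposite held for 47.4%.

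Squared distances among the 10 libraries, on log2(FPKM + 1) of the features tested, lay between the fertility groups to 11.2% (exact permutation test, p = 0.373). A single one of the 9 degrees of freedom corresponds to 11.1%. The groups were therefore not separated as whole profiles, and what follows describes single genes, none of which passed the adjusted threshold.

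**Figure D2:**
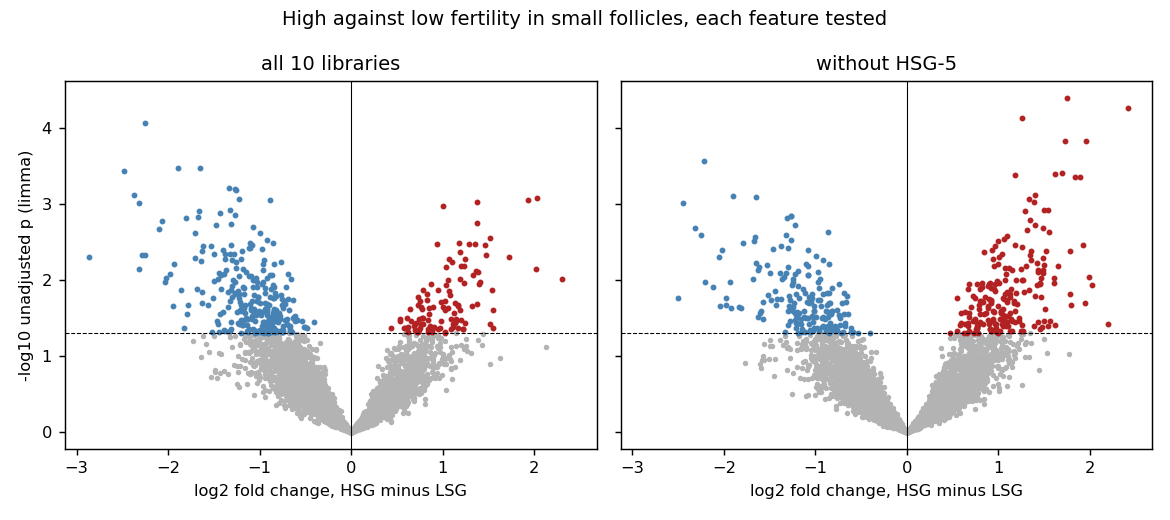
Difference between HSG and LSG in log2(FPKM + 1) (horizontal axis) against the unadjusted limma p as -log10 (vertical axis) for each feature tested, with all 10 libraries (left) and without HSG-5 (right), where the dashed line marks the 0.05 level, red HSG higher and blue LSG higher. With all libraries 110 red and 277 blue features lie above the line, and the blue excess is gone on the right.

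Levels could be compared without zeros for the 109 features above 0 in all 10 libraries. Of these, 62 reached 0.5 FPKM in all 10 and 69 carried an NCBI number, so low values and unnamed loci are among them. Among the 108 of the 109 that were tested, the median difference was -0.33 on the log2(FPKM + 1) scale, beside -0.092 over all features tested. Without HSG-5 the medians were -0.15 and -0.022. PXMP4, a peroxisomal membrane protein, was at 103.78, 66.62, 61.81, 59.82 and 71.71 FPKM in HSG and at 67.38, 94.09, 81.98, 81.93 and 85.07 FPKM in LSG. EGFR, the receptor through which LH-induced EGF-like ligands act in follicles, was at 44.61, 53.84, 50.79, 29.47 and 43.02 FPKM in HSG and at 38.01, 61.4, 58.76, 66.65 and 59.55 FPKM in LSG. For both genes the groups overlapped. The differences were -0.19 ± 0.48 (SE) for PXMP4 (-0.33 ± 0.46 without HSG-5) and -0.36 ± 0.50 (SE) for EGFR, with limma adjusted p of 0.995 and 0.961.

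CDKN1A, the p21 inhibitor of cyclin-dependent kinases, varied more within than between groups, with 40.22, 11.63, 15.61, 5.24 and 25.58 FPKM in HSG and 23.53, 11.82, 28.81, 60.64 and 16.77 FPKM in LSG. FFAR4, a receptor for long-chain fatty acids, was at 4.36, 17.26, 24.39, 11.03 and 10.14 FPKM in HSG and 15.01, 20.92, 18.93, 27.24 and 33.96 FPKM in LSG. For FFAR4, 3 HSG libraries lay below every LSG library, yet the difference of -0.87 ± 0.73 (SE) had a limma adjusted p of 0.915, and it was -0.56 ± 0.72 (SE) without HSG-5. The other genes of this set (SGCB, NIPSNAP1, BRI3BP, PEX2, NIF3L1, MRS2, TTC4 and SLC25A43) had limma adjusted p from 0.911 to 1.

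HSG-5 was the odd library for some of these genes, and without it the differences of PEX2 and NIPSNAP1 turned from -0.52 and -0.16 to 0.35 and 0.49, and that of SLC25A43 from 0.42 to -0.54. PEX2, a ubiquitin ligase of peroxisome import, was at 0.42 FPKM in HSG-5 and at 10.03 to 41.21 FPKM in the other 9 libraries. TTC4, a co-chaperone, was at 0.19 FPKM there and at 4.42 to 26.01 FPKM elsewhere. The mitochondrial carrier SLC25A43 went the other way, with 82.87 FPKM in HSG-5 and 0.16 to 6.8 FPKM elsewhere. The unnamed loci with the highest means behaved in the same way, as MXLOC_1165944 had 1902 FPKM in HSG-5 and 4789 to 6900 FPKM in the other libraries. MXLOC_291290 was at 2198 FPKM in HSG-5 against 4678 to 6191 FPKM, and MXLOC_1189582 at 2381 against 4825 to 7177 FPKM.

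**Figure D3:**
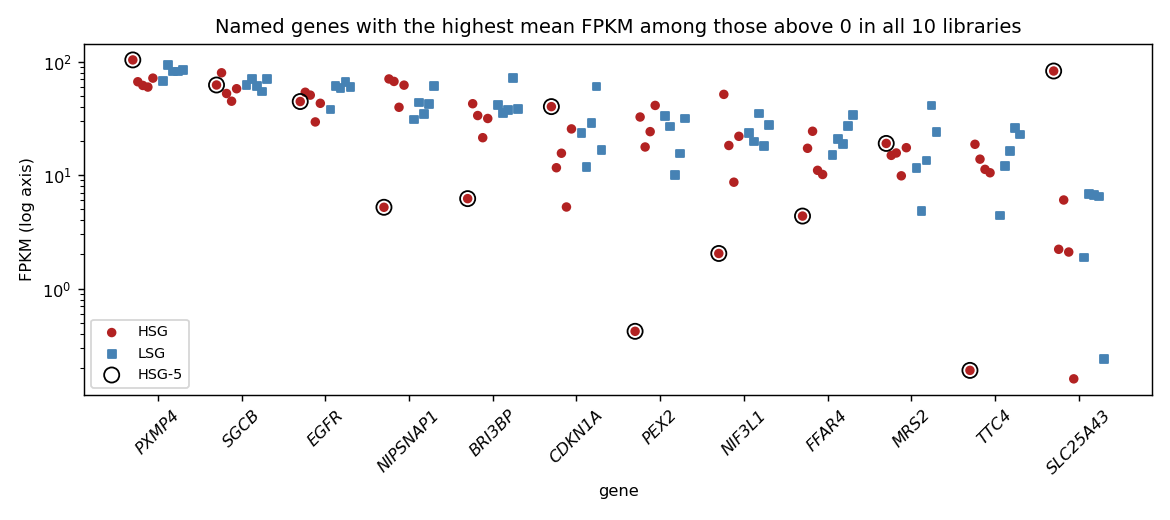
FPKM (log axis) of the 12 named genes with the highest mean among those above 0 in all 10 libraries, with a point for each HSG (red circles) and LSG (blue squares) library and HSG-5 ringed. The groups overlap for every gene. HSG-5 is the lowest library for NIPSNAP1, BRI3BP, PEX2, NIF3L1, FFAR4 and TTC4 and the highest for PXMP4 and SLC25A43.

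Of the 108 features, 1 was higher in HSG (0.926%) and 3 were higher in LSG (2.78%) at an unadjusted limma p under 0.05, and these are named here after their values were seen. TBC1D12, a protein with a Rab GTPase-activating domain, was at 1.62, 2.72, 0.67, 2.75 and 8.18 FPKM in HSG and at 1.61, 0.19, 0.06, 0.03 and 0.33 FPKM in LSG. All HSG values but that of HSG-8 were above the highest LSG value. Its difference was 1.39 ± 0.50 (SE), with an unadjusted limma p of 0.0079 and an adjusted p of 0.57, and it was 1.5 ± 0.52 (SE) without HSG-5. The 3 features higher in LSG rested on HSG-5. MXLOC_1301854 was at 0.43 FPKM in HSG-5 and at 109.87 to 225.96 FPKM in the other 9 libraries, and its difference went from -1.45 to -0.12 without that library. For LOC108636661 it went from -0.88 to -0.25 and for MXLOC_1253336 from -1.06 to -0.30.

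The named genes with the lowest unadjusted p were low and intermittent. The 12 higher in HSG were ANGPTL5, FGFBP1, AZIN1, SLA, SENP2, TGFBR2, CD200, NT5C3A, APCS, CDS2, CAMK2G and PIK3CG, with unadjusted limma p from 0.00083 to 0.0053 and adjusted p from 0.424 to 0.51. The 12 higher in LSG were SUPT4H1, RBM39, CD83, WDR45B, DNAJA1, PDPN, WDR37, KIAA0753, RRP36, TARDBP, STEAP1 and ELAVL1, with unadjusted limma p from 0.00034 to 0.0015 and adjusted p from 0.424 to 0.436. Since they were ranked by this test, the p-values of these genes describe how they were picked.

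**Figure D4:**
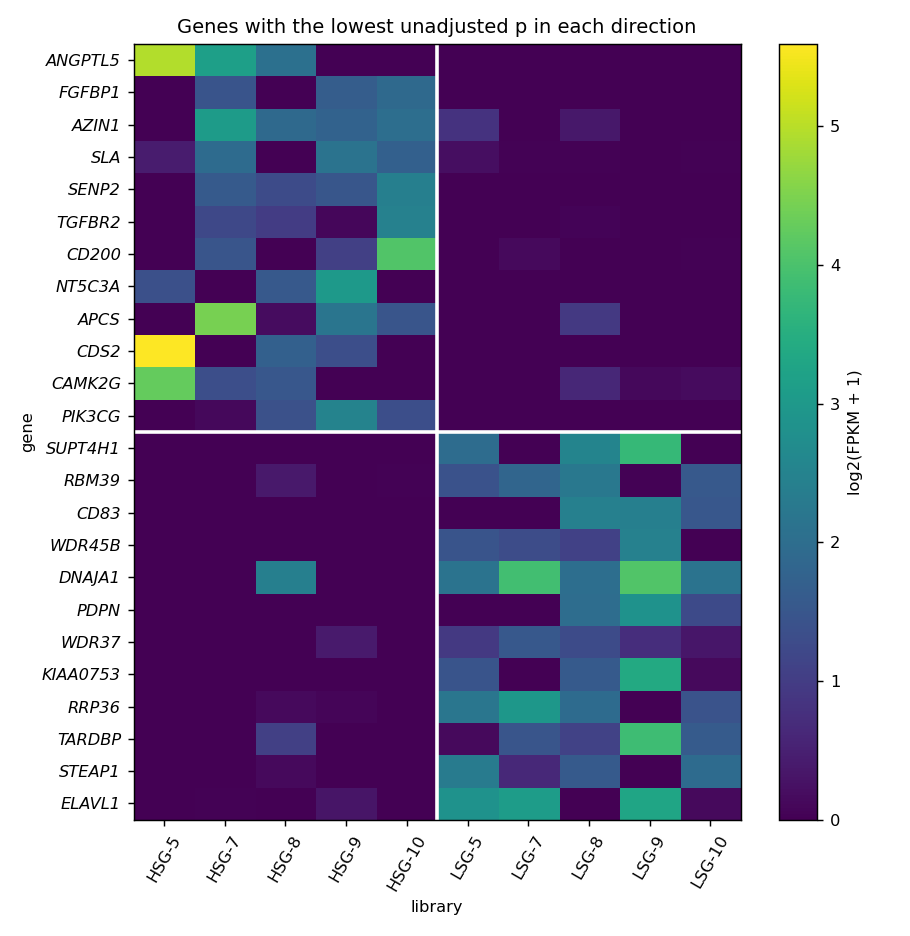
Colour shows log2(FPKM + 1) in each of the 10 libraries (columns) for the 12 named genes with the lowest unadjusted limma p in each direction (rows; HSG higher above the white line, LSG higher below). No gene of the upper block is above 0 in all 5 HSG libraries, and 4 of the lower block (RBM39, DNAJA1, WDR37 and TARDBP) are above 0 in all 5 LSG libraries.

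Among the genes higher in HSG was AZIN1, the antizyme inhibitor that raises polyamine synthesis. It was listed at 0, 7.45, 2.78, 2.4 and 3.06 FPKM in HSG and at 0.77, 0, 0.28, 0 and 0 FPKM in LSG. Apart from HSG-5, every HSG value was above every LSG value. The difference was 1.52 ± 0.48 (SE) and 1.96 ± 0.47 (SE) without HSG-5, with limma adjusted p of 0.509 and 0.181.

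TGFBR2, the type II receptor that binds TGF-beta, was listed at 0, 1.33, 0.98, 0.07 and 4.46 FPKM in HSG and reached 0.04 FPKM in 1 LSG library, LSG-8. The difference was 0.94 ± 0.30 (SE), with a limma adjusted p of 0.509. SENP2, a protease that removes SUMO from proteins, was at 0, 2.02, 1.44, 1.83 and 4.3 FPKM in HSG and listed at 0 in all 5 LSG libraries. PIK3CG, the catalytic subunit of PI3-kinase gamma, was at 0, 0.08, 1.61, 4.67 and 1.54 FPKM in HSG and listed at 0 in LSG. These genes shared the pattern of 4 HSG libraries above 0, all except HSG-5.

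FGFBP1, a carrier that releases fibroblast growth factors from the matrix, was at 0, 1.74, 0, 2.16 and 2.74 FPKM in HSG and listed at 0 in LSG. CD200, a surface glycoprotein that restrains myeloid cells, was at 0, 1.77, 0, 1.1 and 15.95 FPKM in HSG and at most 0.11 FPKM in LSG. SLA, an adaptor of antigen receptor signaling, was at 0.34, 2.88, 0, 3.38 and 2.29 FPKM in HSG and at most 0.15 FPKM in LSG. Each was thus listed at 0 in at least 1 HSG library.

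Other genes on the HSG side were led by a single library. CDS2, an enzyme of phosphatidylinositol synthesis, was at 47.33 FPKM in HSG-5 and at 0, 2.29, 1.52 and 0 FPKM in the other HSG libraries. ANGPTL5 and CAMK2G were at 29.75 and 18.28 FPKM in HSG-5 and at most 7.98 and 1.87 FPKM in the other HSG libraries. APCS, the serum amyloid P component, was at 20.89 FPKM in HSG-7 and at 0, 0.14, 3.52 and 1.79 FPKM in the other HSG libraries. Without HSG-5, CDS2 had a difference of 0.76 ± 0.37 (SE) in place of 1.73 ± 0.58 (SE), and CAMK2G fell below the filter.

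On the LSG side, DNAJA1, a co-chaperone of HSP70, was listed at 0, 0, 4.33, 0 and 0 FPKM in HSG and at 3.35, 13.97, 3.05, 15.9 and 3.4 FPKM in LSG. The groups overlapped through HSG-8 alone. The difference was -2.37 ± 0.65 (SE) and -2.25 ± 0.70 (SE) without HSG-5, with limma adjusted p of 0.424 and 0.463.

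RBM39, a splicing factor, was at 0, 0, 0.31, 0 and 0.03 FPKM in HSG and at 1.65, 2.54, 3.71, 0.03 and 1.97 FPKM in LSG. TARDBP, which encodes the splicing regulator TDP-43, was at 0, 0, 1.08, 0 and 0 FPKM in HSG and at 0.11, 1.8, 1.14, 13.5 and 2.04 FPKM in LSG. ELAVL1, the mRNA-stabilizing protein HuR, was at 0, 0.02, 0, 0.24 and 0 FPKM in HSG and at 6.23, 7.49, 0, 8.73 and 0.11 FPKM in LSG. The groups overlapped for all of them, and the differences were -1.33 ± 0.36, -1.43 ± 0.42 and -1.81 ± 0.53 (SE), with limma adjusted p of 0.424, 0.436 and 0.436.

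SUPT4H1, a subunit of the transcription elongation factor DSIF, was listed at 0 in all HSG libraries and at 2.96, 0, 4.72, 12.35 and 0 FPKM in LSG. WDR45B, an autophagy protein, was listed at 0 in HSG and at 1.75, 1.46, 1.12, 4.52 and 0 FPKM in LSG. CD83, a marker of mature dendritic cells, was listed at 0 in HSG and at 0, 0, 4.38, 4.35 and 1.85 FPKM in LSG. Beside CD83, the list of immune cell genes was above 0 in 6 of 55 gene-library pairs in HSG and in 12 of 55 in LSG. These shares were 10.9% in HSG, 13.6% without HSG-5 and 21.8% in LSG. All were below the 21.7%, 26.2% and 28.0% over all features with an NCBI number. The part of immune cells in the CD83 values was not tested. PDPN, a mucin-like surface protein, was likewise listed at 0 in HSG and at 0, 0, 3, 6.2 and 1.38 FPKM in LSG.

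No tested feature had all its HSG values above its LSG values (0.0%), and 15 had all LSG values above the HSG values (0.248%). Without HSG-5 the counts were 35 (0.58% of 6031) and 15 (0.249%). Of all features above 0, none was above 0 in 5 HSG and 0 LSG libraries, and 9 (0.0555%) were above 0 in 0 HSG and 5 LSG libraries. The 8 of these with a symbol were SERPINA10, DLX1, PRDM1, TOR1B, ARSB, S1PR3, NXPH1 and ZBTB5. Each had a Fisher exact p of 0.00794, the smallest that 5 libraries a side can give, and an adjusted p of 1.

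PRDM1, the repressor BLIMP1, was at 0.67, 0.07, 1.03, 4.7 and 2.1 FPKM in LSG. DLX1, a homeobox factor, was at 0.16, 0.46, 1.77, 5.09 and 1.28 FPKM. TOR1B, an ATPase of the endoplasmic reticulum, was at 0.56, 0.59, 0.56, 2.71 and 3.6 FPKM. All 3 were listed at 0 in the 5 HSG libraries. S1PR3, a receptor for sphingosine-1-phosphate, exceeded 1 FPKM only in LSG-7, at 3.61 FPKM, and ZBTB5 in no library, with 0.04 to 0.83 FPKM.

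Among the other features without overlap, named after their values were seen, the mitochondrial kinase AK4 was at 0, 0.19, 0.38, 0 and 0 FPKM in HSG and at 1.01, 4.88, 1.89, 1.7 and 1.11 FPKM in LSG. TAOK1, a kinase upstream of the Hippo and p38 pathways, was measured in every library, at 0.21, 0.25, 0.39, 0.29 and 0.33 FPKM in HSG and at 1.07, 1.76, 1.3, 0.89 and 0.52 FPKM in LSG. The difference was -1.38 ± 0.46 (SE) for AK4 and -0.68 ± 0.42 (SE) for TAOK1, with limma adjusted p of 0.509 and 0.855. TAOK1 was thus the feature above 0 in all 10 libraries whose groups did not overlap (0.926% of the 108).

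LOC102175358, an unnamed protein-coding gene, was at 0, 0.55, 0, 0.09 and 0 FPKM in HSG and at 5.27, 4.62, 3.23, 7.05 and 6.72 FPKM in LSG, with a difference of -2.48 ± 0.64 (SE) and a limma adjusted p of 0.424. LOC102187880, also protein-coding and without a symbol, had the lowest unadjusted limma p, 8.5e-05, with an adjusted p of 0.424. It was at 0, 0, 0, 0.73 and 0 FPKM in HSG and at 0.15, 1.34, 6.5, 16.66 and 10.92 FPKM in LSG, a difference of -2.25 ± 0.52 (SE). This gene passed the threshold under 3 of the alternatives given in the closing section. In the filter set in the small follicle libraries it was admitted mainly through LSG, where it was high. The others left out LSG-5, its lowest LSG value at 0.15 FPKM. These passes therefore add no separate support. With HSG and LSG alone in the fit its unadjusted limma p was 0.0075 and its adjusted p 0.825.

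Without HSG-5, 16 features (0.099% of 16168) were above 0 in all 4 HSG and no LSG library, and 9 (0.0557%) in no HSG and all 5 LSG libraries. Named after their values were seen, the 16 included SENP2, PIK3CG and ZNF22, a zinc finger protein at 3.2, 1.44, 1.09 and 2.02 FPKM in HSG-7, HSG-8, HSG-9 and HSG-10. IDH1, the cytosolic isocitrate dehydrogenase, was at 5.03, 0.48, 0.19 and 0.05 FPKM in the same libraries and listed at 0 in HSG-5 and LSG. UBE3A, a ubiquitin ligase, was at 0.04, 1.27, 0.98 and 0.94 FPKM and listed at 0 in HSG-5 and LSG.

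Gene lists of the follicle were read by the share of their gene-library pairs above 0, beside 21.7% in HSG, 26.2% in HSG without HSG-5 and 28.0% in LSG over all features with an NCBI number. Genes of cell division were above 0 in 17.9% of pairs in HSG, 22.4% without HSG-5 and 32.4% in LSG. For genes abundant in most cells these shares were 39.3%, 44.8% and 57.2%, and for RNA processing genes 44.1%, 55.2% and 58.6%. For TGF-beta superfamily genes they were 33.5%, 41.2% and 35.1%, so that with HSG-5 left out HSG was above LSG. The LSG share was above the HSG share in 21 of the 25 lists, and in 12 of them without HSG-5.

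**Figure D5:**
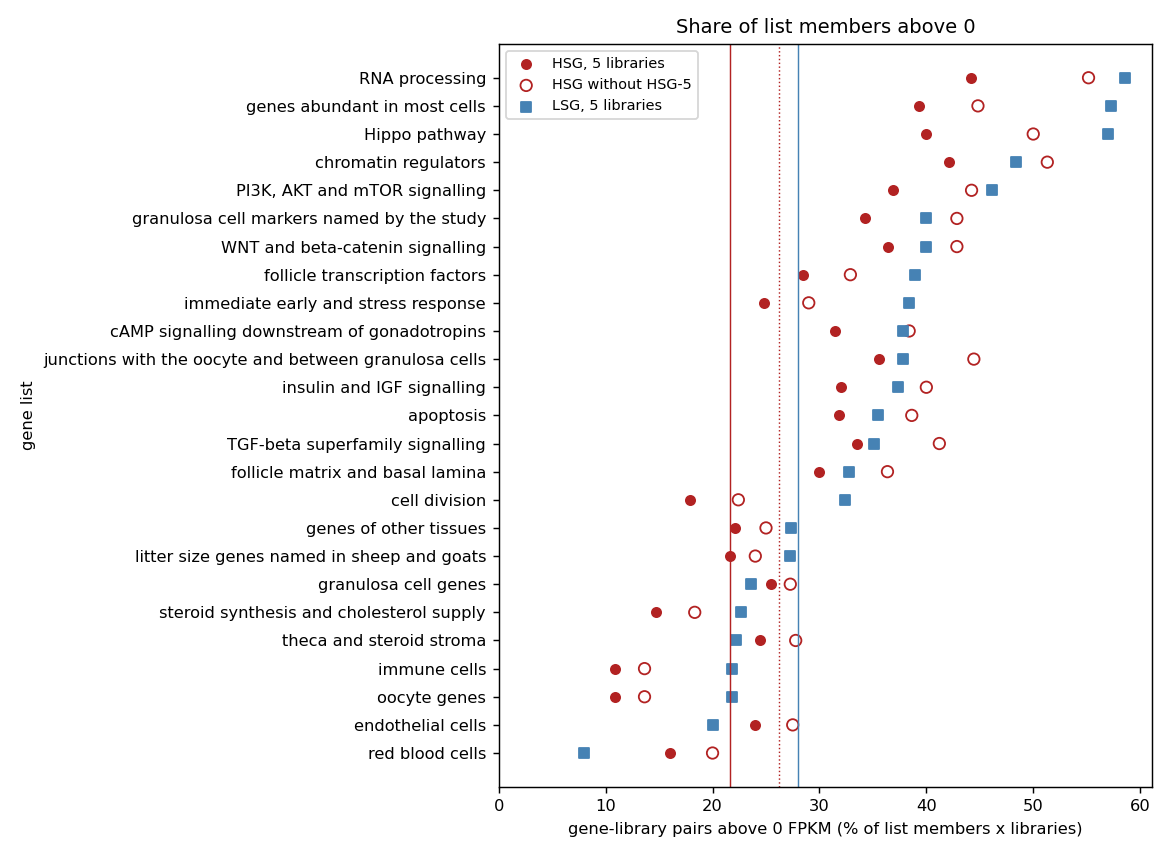
Share of gene-library pairs above 0 FPKM (horizontal axis, percent) for 25 gene lists, in the 5 HSG libraries (filled red), the 4 without HSG-5 (open red) and the 5 LSG libraries (blue squares), with vertical lines at the shares over all features with an NCBI number (red 21.7%, dotted red 26.2%, blue 28.0%). LSG exceeds HSG for 21 of the 25 lists with HSG-5 and for 12 without it.

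The gonadotropin receptors and the inhibin and activin subunits were each above 0 in at most 5 of the 10 libraries. LHCGR, the LH receptor, was at 38.74 FPKM in HSG-5 and listed at 0 in the other 9 libraries. INHBA, the activin A subunit, was at 26.84, 0.16, 0, 0 and 0.12 FPKM in HSG and 0, 0.25, 0, 0 and 0.21 FPKM in LSG. INHBB was at 0, 0, 0.13, 0 and 7.08 FPKM in HSG and above 0 in LSG only in LSG-5, at 1.4 FPKM, and INHA was above 0 only in LSG-7, at 3.2 FPKM. HSG-5 thus held the highest values of LHCGR and INHBA, beside 61.63 FPKM of GCG, the glucagon gene taken from a list of other tissues, which was listed at 0 in 8 libraries and at 0.76 FPKM in LSG-10.

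KITLG, the ligand by which granulosa cells act on the oocyte's KIT, was at 0, 0.14, 3.12, 0 and 0 FPKM in HSG and at 0.84, 0.04, 0.04, 0.11 and 0.92 FPKM in LSG. It was above 0 in 2 HSG and 5 LSG libraries, while its difference was 0.03 ± 0.47 (SE; limma adjusted p = 1). FST was above 0 only in HSG-8, at 0.14 FPKM, NR5A2 only in LSG-7, at 0.62 FPKM, and HSD17B1 only in LSG-5, at 0.6 FPKM. A list of 7 granulosa markers that the study took from these same libraries is no independent evidence. It was above 0 in 12 of 35 pairs in HSG and 14 of 35 in LSG. Of its members, 3 were above 0 in more LSG libraries, 3 in equal numbers and 1 in more HSG libraries. The last was EGR1, at 0, 0.8, 0.73, 0 and 0.28 FPKM in HSG and listed at 0 in LSG.

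Of the 37 measured TGF-beta superfamily genes, 17 were tested, and TGFBR2 was the one with an unadjusted limma p under 0.05, on the HSG side. Over all features tested the share was 6.39% in either direction and 1.82% on that side. The median difference of the list was 0.03, beside -0.092 over all features tested, and without HSG-5 the medians were 0.20 and -0.022. BMPR1B, the receptor of the Booroola litter size mutation in sheep, was at 0, 0.53, 0.65, 0 and 0 FPKM in HSG and at 2.91, 2.11, 0.65, 0 and 0.2 FPKM in LSG, a difference of -0.65 ± 0.55 (SE; limma adjusted p = 0.919). SMAD9, a transducer of BMP signals, was at 0, 0.3, 1.53, 0.65 and 0.6 FPKM in HSG and at 0.01, 0, 0.09, 0 and 0.49 FPKM in LSG (difference 0.48 ± 0.32 SE, limma adjusted p = 0.866). The 25 litter size genes had none at an unadjusted limma p under 0.05 among the 8 tested.

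Among follicle transcription factors, 1 of 9 tested was under an unadjusted limma p of 0.05, beside 6.39% of all features tested. This was GATA6, which with GATA4 drives steroidogenic genes, at 0, 6.84, 0.71, 0.76 and 0 FPKM in HSG and 0, 0, 0.03, 0 and 0.02 FPKM in LSG. The difference of 0.90 ± 0.43 (SE) had a limma adjusted p of 0.776.

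In the PI3K, AKT and mTOR list, 1 of 13 tested genes was higher in HSG and 2 were higher in LSG at an unadjusted limma p under 0.05, beside 1.82% and 4.57% of all features tested. INPP4B, a phosphatase of PI(3,4)P2, was at 0, 1.18, 0.73, 0.87 and 2.42 FPKM in HSG and at 0.03, 0, 0.09, 0 and 0.15 FPKM in LSG. EIF4E, the cap-binding initiation factor, was at 0, 0.13, 0, 0 and 0.03 FPKM in HSG and at 0.6, 2.85, 1.8, 6.56 and 0.06 FPKM in LSG. The differences were 0.84 ± 0.39 and -1.38 ± 0.47 (SE) in this order, with limma adjusted p of 0.757 and 0.51.

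In the list of junction genes, GJC1 (connexin 45) was at 0, 2.86, 2.03, 0.88 and 3.24 FPKM in HSG and at 0, 0.36, 0.45, 0 and 0.16 FPKM in LSG. Its difference was 1.07 ± 0.42 (SE; limma adjusted p = 0.631), the single one of 10 tested junction genes under an unadjusted p of 0.05, beside 6.39% of all features tested. GJA1 (connexin 43), the main granulosa connexin, was at 0, 0, 1.39, 0 and 1.04 FPKM in HSG and at 0.64, 0, 2.74, 5.75 and 0.09 FPKM in LSG (difference -0.64 ± 0.49 SE, limma adjusted p = 0.901). GJA4 (connexin 37), the oocyte's connexin, was above 0 only in LSG-7, at 4.94 FPKM.

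In the Hippo list, STK4, a core kinase, was at 0, 0.03, 0.16, 0.04 and 0 FPKM in HSG and at 0.54, 2.97, 2.77, 0 and 0 FPKM in LSG, the 1 of 13 tested genes at an unadjusted limma p under 0.05 (difference -0.84 ± 0.37 SE, adjusted p = 0.712). In the cell division list, CDK2 was listed at 0 in HSG and at 0.63, 0, 0, 0.21 and 1.64 FPKM in LSG, again the 1 of 9, and both counts stand beside 6.39% of all features tested. Of 29 measured division genes, 12 were above 0 in any HSG library and 22 in any LSG library. Their shares of gene-library pairs above 0 were 17.9% in HSG, 22.4% without HSG-5 and 32.4% in LSG. Over all features with an NCBI number these shares were 21.7%, 26.2% and 28.0%. HSG-5 listed all 29 at 0.

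RNA processing genes went in both directions. At an unadjusted limma p under 0.05, 2 of 20 tested were higher in HSG and 1, RBM39, in LSG, beside 1.82% and 4.57% of all features tested. SRRM1, a splicing coactivator, was at 0, 1.16, 5.1, 2.46 and 4.82 FPKM in HSG and at 0, 1.12, 0.03, 0 and 0.02 FPKM in LSG, and PNISR, an arginine/serine-rich protein of splicing speckles, was at 0, 1.07, 4.82, 4.2 and 9.73 FPKM in HSG and at 0, 0, 2.02, 0 and 0.03 FPKM in LSG. The differences were 1.38 ± 0.57 and 1.55 ± 0.74 (SE), with limma adjusted p of 0.699 and 0.776. The list's median was 0.01, and 0.16 without HSG-5, beside -0.092 and -0.022 over all features tested. Its 29 genes were listed at 0 in HSG-5 without exception.

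Of the 29 genes abundant in most cells, 19 were above 0 in more LSG than HSG libraries and 4 in more HSG libraries. Over all 16215 features above 0 in at least 1 library, these shares were 50.8% and 27.4%. PFN1, the actin-binding profilin and the 1 of 20 tested genes at an unadjusted limma p under 0.05 (beside 6.39% of all features tested), was listed at 0 in HSG and at 0.8, 6.37, 0, 0.07 and 0.91 FPKM in LSG. EEF1A1, the elongation factor, was at 0, 1.12, 2.85, 4.41 and 0.63 FPKM in HSG and at 4.09, 1.61, 4.62, 11.9 and 5.39 FPKM in LSG (difference -1.28 ± 0.83 SE, limma adjusted p = 0.866). RPL4, a ribosomal protein, ran against this, at 9.78, 4.15, 3.87, 0.3 and 0.2 FPKM in HSG and 0.34, 0, 0, 0.17 and 0.81 FPKM in LSG. The median of the 20 tested was -0.39, and -0.35 without HSG-5, beside -0.092 and -0.022 over all features tested.

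For the remaining lists no tested gene had an unadjusted limma p under 0.05. These were the steroid synthesis (4 tested), WNT (9), apoptosis (10), matrix (3), cAMP (12), insulin and IGF (7), immediate early and stress (10) and chromatin (15) lists, with the other lists of cell types and tissues. STAR, which carries cholesterol into mitochondria, was at 1.93 FPKM in HSG-8 and in LSG-10 and listed at 0 in the other 8. IGF1 was at 0, 0, 1.07, 0.03 and 1.21 FPKM in HSG and at 1.7, 0.23, 1.64, 0 and 5.15 FPKM in LSG (difference -0.70 ± 0.61 SE, limma adjusted p = 0.919). CREB1, which carries the cAMP signal to genes, was at 0, 0.68, 1.05, 1.71 and 0.1 FPKM in HSG and 1.53, 0.68, 2.26, 2.54 and 1.96 FPKM in LSG (difference -0.76 ± 0.53 SE, limma adjusted p = 0.879).

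Whether the fertility difference in small follicles departed from that in larger ones was tested by the difference between the contrasts. No feature passed against medium follicles or against large follicles (limma, 0 of 6058 adjusted, 0.0% each), and 332 (5.48%) and 333 (5.5%) had an unadjusted p under 0.05. LOC102187880 differed by 0.43 ± 0.52 (SE) in medium follicles and had no value above 0 in any large follicle library, with unadjusted limma p of 0.00071 and 0.0037 for the differences from small follicles. AZIN1 differed by -0.64 ± 0.48 (SE) in medium and by 0.18 ± 0.48 (SE) in large follicles, beside 1.52 ± 0.48 (SE) in small ones. Its limma adjusted p were 0.87 and 0.837 for the differences from small follicles. Both genes were picked by their difference in small follicles, which is part of these contrasts. Their p-values here therefore also describe how they were picked.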

How the data were processed

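Total RNA was sequenced from portions of goat granulosa cells on an Illumina instrument after removal of ribosomal RNA. Reads with a unique match to a goat genome and fewer than 5 mismatches were kept and duplicates removed, and the authors computed FPKM values with Cufflinks 2.2.1. The aligner and the genome build are not given in the sources used here. The deposited table holds these FPKM values for 30 libraries, with no counts, so no count model was used and depth could be read from the value steps in 5 of the 10 small follicle libraries only. An exact 0 can be a failed estimate.

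Gene numbers were matched to symbols in RefSeq ARS1.2 (17945 of 17946). Log2(FPKM + 1) of the 6058 features above 0.5 FPKM in at least 5 of the 30 libraries was fitted with limma 3.58.1 (R 4.3.3; trended, robust, all 6 groups of the series sharing the variance, Benjamini-Hochberg at 0.05). Libraries above 0 were compared by Fisher's exact test, and library values by exact permutation tests (scipy 1.17.1). The genes named were those with the 12 lowest unadjusted p in each direction that had a symbol, those above 0 in all libraries of one group and in none of the other, the 12 highest among those above 0 in all 10 libraries, the 3 features with the highest mean, the granulosa genes, and up to 4 of each list. The libraries, lists and tests were chosen with earlier results of these data known. Alternatives covered the pseudocount, filter, scaling, covariates, weights, libraries in the fit, detection limits and each library left out. Some list members are not reported here.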

Additional observations from a re-analysis of the deposited data

Results flagged for a closer look

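In 44 sets of 5 values (library measures, and the levels of genes above 0 in all 10 libraries), 9 had a sample farther from the others than Dixon's 95% limit for 5 values allows, where chance gives about 2.2. HSG-5 was that sample in 7 of them. It had 357 features at 1 FPKM or more, against 1813 to 2381 in the other HSG libraries, and 294 with an NCBI number, against 1576 to 2050. Unnamed loci held 66.0% of its FPKM, against 72.1% to 74.3%. PXMP4 was at 103.78 FPKM in HSG-5, against 59.82 to 71.71, and SLC25A43 at 82.87 FPKM, against 0.16 to 6.04. MXLOC_1165944 was at 1902.16 FPKM there, against 4877 to 5482, and MXLOC_291290 at 2197.83 FPKM, against 4895 to 5670. In LSG, EGFR was at 38.01 FPKM in LSG-5, against 58.76 to 66.65, and BRI3BP at 72.05 FPKM in LSG-9, against 35.22 to 41.31. No feature had a fertility difference in small follicles that departed, after adjustment, from that in medium or large ones.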

How the results depend on the processing

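Of 1726 repeat values for the 78 single features followed, 1691 kept their direction and their side of the threshold, and 32 turned sign, none of them past the threshold. Those that passed it were all LOC102187880, with a limma adjusted p of 0.0195 when the filter was set in the small follicle libraries, 0.00897 without LSG-5 and 0.0375 without HSG-5 and LSG-5, in a range of 0.00897 to 0.856 over its alternatives. These make the 1 feature past the threshold in each case, and leaving out each library in turn gave 0 to 1. The gene met that filter mainly through LSG libraries, and LSG-5 held its lowest LSG value. The alternative without both libraries, and the fit of HSG and LSG alone without HSG-5, were chosen after seeing the data. At an unadjusted limma p under 0.05 there were 909 features with no filter (286 higher in HSG, 623 in LSG), 43 above 1 FPKM in at least 10 libraries (10 and 33), 88 with the small follicle filter (18 and 70), 136 with HSG and LSG alone in the fit (41 and 95), and 162 when HSG-5 was left out as well (61 higher in LSG). HSG higher counts were 185 with each library's detected features as a covariate, 65 with sample quality weights and 180 without HSG-5 and LSG-5, and quantile normalization gave 182 higher in LSG. Leaving out each library in turn gave 341 to 391 features, 73 (without LSG-9) to 204 (without HSG-5) higher in HSG and 187 (without HSG-5) to 303 higher in LSG. Of the features above 0 in all 10 libraries, 1 to 6 were under 0.05 with each library left out (1 without HSG-5, 2 without LSG-7 and 2 without LSG-8), 2 after rescaling, quantile normalization or weights or with at least 0.5 FPKM in all 10, and 1 with the covariate, with HSG and LSG alone, or without HSG-5 and LSG-5. Fisher's exact test gave 65 and 31 at unadjusted p under 0.05 with detection at 0.5 and 1 FPKM, and 217 to 387 with a library left out, where 4 libraries against 5 allow other p-values. The difference between small and large follicles gave 521 with weights. The 32 were on the log2 scale and came from 8 features. NIPSNAP1 and PEX2 (-0.16 and -0.52 with all libraries) were at 0.49 and 0.35 without HSG-5, the same with HSG and LSG alone in the fit, at 0.39 and 0.50 without HSG-5 and LSG-5, and at 0.027 and 0.053 after quantile normalization, and NIPSNAP1 was at 0.044 after rescaling and 0.30 with the covariate. With libraries left out their lowest values were -0.39 (without HSG-7) and -0.87 (without HSG-10). SLC25A43 (0.42) was at -0.54 without HSG-5, also with HSG and LSG alone, at -0.69 without HSG-5 and LSG-5 and at -0.04 without LSG-10, with a highest value of 1.002 without HSG-10. After rescaling, PXMP4 was at 0.027 and SGCB at 0.11, and after quantile normalization MXLOC_291290 was at 0.052. MRS2 (-0.01) was at 0.0093 with a pseudocount of 0.1, 0.20 after rescaling, 0.14 after quantile normalization, 0.021 with the covariate, 0.068 with weights, and from -0.38 to 0.33 with libraries left out (above 0 without HSG-9, LSG-9 or LSG-10). KITLG (0.03) was at -0.47 and -0.045 with pseudocounts of 0.1 and 0.5, -0.0092 with weights, and from -0.37 to 0.26 with libraries left out (below 0 without HSG-8, LSG-7, LSG-8 or LSG-9). The causes were not tested. Deviations of libraries of the same number had correlations from -0.026 to 0.015, and those of unlike numbers from -0.042 to 0.052. With most values at 0, these cannot decide whether the numbers pair the libraries. A replicate block gave 370 features in the fit of all groups and 123 (36 higher in HSG, 87 in LSG) with HSG and LSG alone, none past the threshold. Depth could not be read in 5 libraries, and values under about 1 FPKM limit most statements.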
